A study of Rattus norvegicus with 40 samples.

Results

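The genes described here encode 9 enzymes of the methionine cycle and of the transsulfuration branch that leaves it: Mat1a, Mat2a, Mat2b, Gnmt, Bhmt, Ahcy, Pemt, Cbs and Cth. They were taken by symbol as enzymes of this pathway, a choice made with earlier results of these data known, and all 9 were found among the 17337 genes counted. All 9 also passed the filter on low counts in every comparison. Messenger RNA was sequenced from liver of male Fischer 344 rats in a model of hepatocellular carcinoma (HCC) driven by diethylnitrosamine (DEN), a carcinogen that hepatocytes convert into a DNA-alkylating agent. DEN was injected into the peritoneum once a week at 50 mg/kg from 7 weeks of age. Liver was taken after 8 weeks of injections, after 14 weeks of injections, or at 20 weeks, when 14 weeks of injections had been followed by 6 weeks without DEN. Non-tumoral (NT) liver was sampled at each time from 4 DEN-treated rats, and 2 tumor nodules were taken from each of the 4 rats at 14 and 20 weeks. Liver of 4 rats of the same age that received no DEN served as control at each time, which gave 8 groups and 40 libraries from 24 rats. Whether these controls received the vehicle was not stated, and the histology of the single nodules used for RNA was not given in the labels.

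Methionine adenosyltransferases (MAT) convert methionine and ATP into S-adenosylmethionine, the methyl donor of nearly all methylation reactions. Mat1a encodes the catalytic subunit of the liver isozymes, while Mat2a encodes the catalytic subunit found in most other tissues, and Mat2b encodes a regulatory subunit that joins it. Adult hepatocytes are known for high MAT1A and low MAT2A, and a shift from the first to the second is a textbook feature of fetal, regenerating and malignant liver. After methyl transfer, S-adenosylhomocysteine is split to homocysteine, which is either remethylated to methionine or passed through cystathionine to cysteine.

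Between 20528500 and 160623000 read pairs were counted per library, with a median of 30477400. The largest library, NT liver of rat H26 at 20 weeks, was far deeper than the others, and without it 1 member (Cbs) in place of 5 was called in NT liver at 20 weeks, with 1726 of 10796 genes in all. The same calls (Mat2a, Gnmt, Bhmt and Cth) were also lost without H16 or without H28, whose libraries were not unusually deep. Levels are given in CPM (counts divided by library size, per 1000000 counts) scaled by trimmed means of M-values (TMM), and they compare samples, not genes, since they are not divided by transcript length. A tumor value of a rat is the mean of its 2 nodules, while the test added the counts of both. Differences were tested across all genes with edgeR's quasi-likelihood test, and a gene is said to be called, or to have risen or fallen, when its Benjamini-Hochberg adjusted p was at most 0.05 and its log2 fold change was 0.5 or more in either direction. Rats with a label starting with F occurred in DEN groups alone, so that this letter and the treatment cannot be told apart for them. Without rats numbered F, the number of members called against no DEN liver was 3 (NT, 8 weeks), 6 (NT, 14 weeks), 6 (NT, 20 weeks), 7 (tumors, 14 weeks) and 8 (tumors, 20 weeks), beside 17.8%, 34.7%, 16.4%, 41.5% and 37.1% of all genes tested. These were not always the members called with all rats: at 8 weeks Gnmt (-0.57) and Pemt (-0.52) gained a call and Cbs (-0.49) lost it.

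DEN lowered the Mat1a mRNA of NT liver at 8 weeks and of tumors at both times, while Mat2a rose in NT liver at 14 and 20 weeks and in tumors. Mat1a, which makes the liver isozymes, stood at 2119, 2030, 2042 and 1900 CPM in the 4 no DEN rats at 8 weeks and at 1374, 1570, 1274 and 1102 CPM in NT liver. Every NT value lay below every control value. The log2 fold change was -0.60 (SE 0.10, edgeR adjusted p = 0.00161, n = 4 per group).

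At 14 weeks the no DEN rats had 2258, 2339, 2132 and 2320 CPM of Mat1a, and NT liver had 2333 in rat F06 but 1289, 1031 and 1480 in rats H21, H22 and H23. Rat F06 thus lay inside the control range and the other 3 rats far below it. The difference of -0.54 (SE 0.21, edgeR adjusted p = 0.0513) was not called, and without F06 it was -0.83 (edgeR adjusted p = 5.34e-05). It was also called by DESeq2, with RLE scaling and in a fit of all 8 groups (-0.57, -0.56 and -0.57). Over all 15 alternatives the difference ran from -0.83 to -0.14, and it was called in 5 of them. In the nodules Mat1a averaged 1596 CPM in F06 and 1026, 838 and 1214 CPM in H21, H22 and H23, all below the controls. Tumors at 14 weeks thus differed from no DEN liver by -0.98 (SE 0.18, edgeR adjusted p = 0.00213).

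By 20 weeks, 6 weeks after the last injection, NT liver held 2142, 1982, 2160 and 1592 CPM of Mat1a against 2387, 2418, 2088 and 2600 CPM without DEN. These ranges overlapped, and the log2 difference of -0.26 (95% confidence interval -0.51 to -0.02, edgeR adjusted p = 0.104) was not called. The tumors of the same rats had 1451, 1666, 1128 and 863 CPM. All tumor values were below all control values, with a log2 fold change of -0.93 (SE 0.22, edgeR adjusted p = 0.00524). With library totals in place of TMM, which also raised the median of all genes, Mat1a was not called in NT liver at 8 weeks (-0.41) or in tumors at 14 weeks (-0.41) and 20 weeks (-0.46).

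Mat2a, the catalytic subunit outside the adult hepatocyte, was measured with 103 to 1763 counts per library. No DEN liver had 5.84, 6.59, 6.76 and 8.95 CPM at 8 weeks, and NT liver had 10.1, 6.08, 8.86 and 10.7 CPM. Rats F10 (6.08) and H17 (8.86) lay inside the control range, and the log2 difference of 0.35 (SE 0.19, edgeR adjusted p = 0.171) was not called. Leaving out F10 gave 0.50 (edgeR adjusted p = 0.0285), which is called.

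At 14 weeks Mat2a was 6.09, 4.46, 7.24 and 6.87 CPM without DEN and 10.5, 12.3, 9.01 and 10.5 CPM in NT liver. No NT value fell within the control range. Mat2a was 1.74-fold higher (log2 fold change 0.80, SE 0.15, edgeR adjusted p = 0.00109). Tumors gave 5.91 CPM in F06 and 13.4, 11.7 and 10.8 CPM in H21, H22 and H23. F06 alone lay among the controls, and Mat2a rose by 0.74 in tumors (SE 0.25, edgeR adjusted p = 0.0326). That call was lost with nodule 1 alone (0.84, edgeR adjusted p = 0.0947) and on leaving out any of 6 rats, H09, H10, H12, H21, H22 or H23 (adjusted p up to 0.0900), while without rats numbered F the rise was 0.96 (edgeR adjusted p = 0.000126).

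At 20 weeks no DEN liver had 6.27, 6.79, 7.19 and 5.31 CPM of Mat2a, NT liver 6.51 (F03), 9.71, 10.9 and 11.03 CPM, and tumors 8.98 (F03), 11.7, 15.3 and 16.4 CPM. In NT liver F03 overlapped the controls, whereas all 4 tumor values lay above them. The rise was 0.59 in NT liver (SE 0.18, edgeR adjusted p = 0.0282) and 1.03, or 2.05-fold, in tumors (SE 0.18, edgeR adjusted p = 0.00112). The call in NT liver was lost without H13, H14, H16, H26 or H28 (adjusted p up to 0.101) and in a fit of all 8 groups (edgeR adjusted p = 0.0531), and that in tumors was lost with nodule 1 alone (0.80, edgeR adjusted p = 0.0720).

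Mat2b, the regulatory partner of Mat2a, kept between 26.5 and 35.6 CPM in all rat values of all 8 groups. Its log2 differences from no DEN liver ran from -0.00 to 0.09, with 95% confidence intervals that stayed between -0.19 and 0.26 over the 5 comparisons. With libraries scaled to their totals alone, without TMM, Mat2b was called up in NT liver at 14 weeks (0.52) and in tumors (0.65 at 14 weeks and 0.50 at 20 weeks), and the median of all genes tested was then shifted upwards as well, to 0.44, 0.57 and 0.51. Relative to that shift the Mat2b differences were again small.

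**Figure D1:**
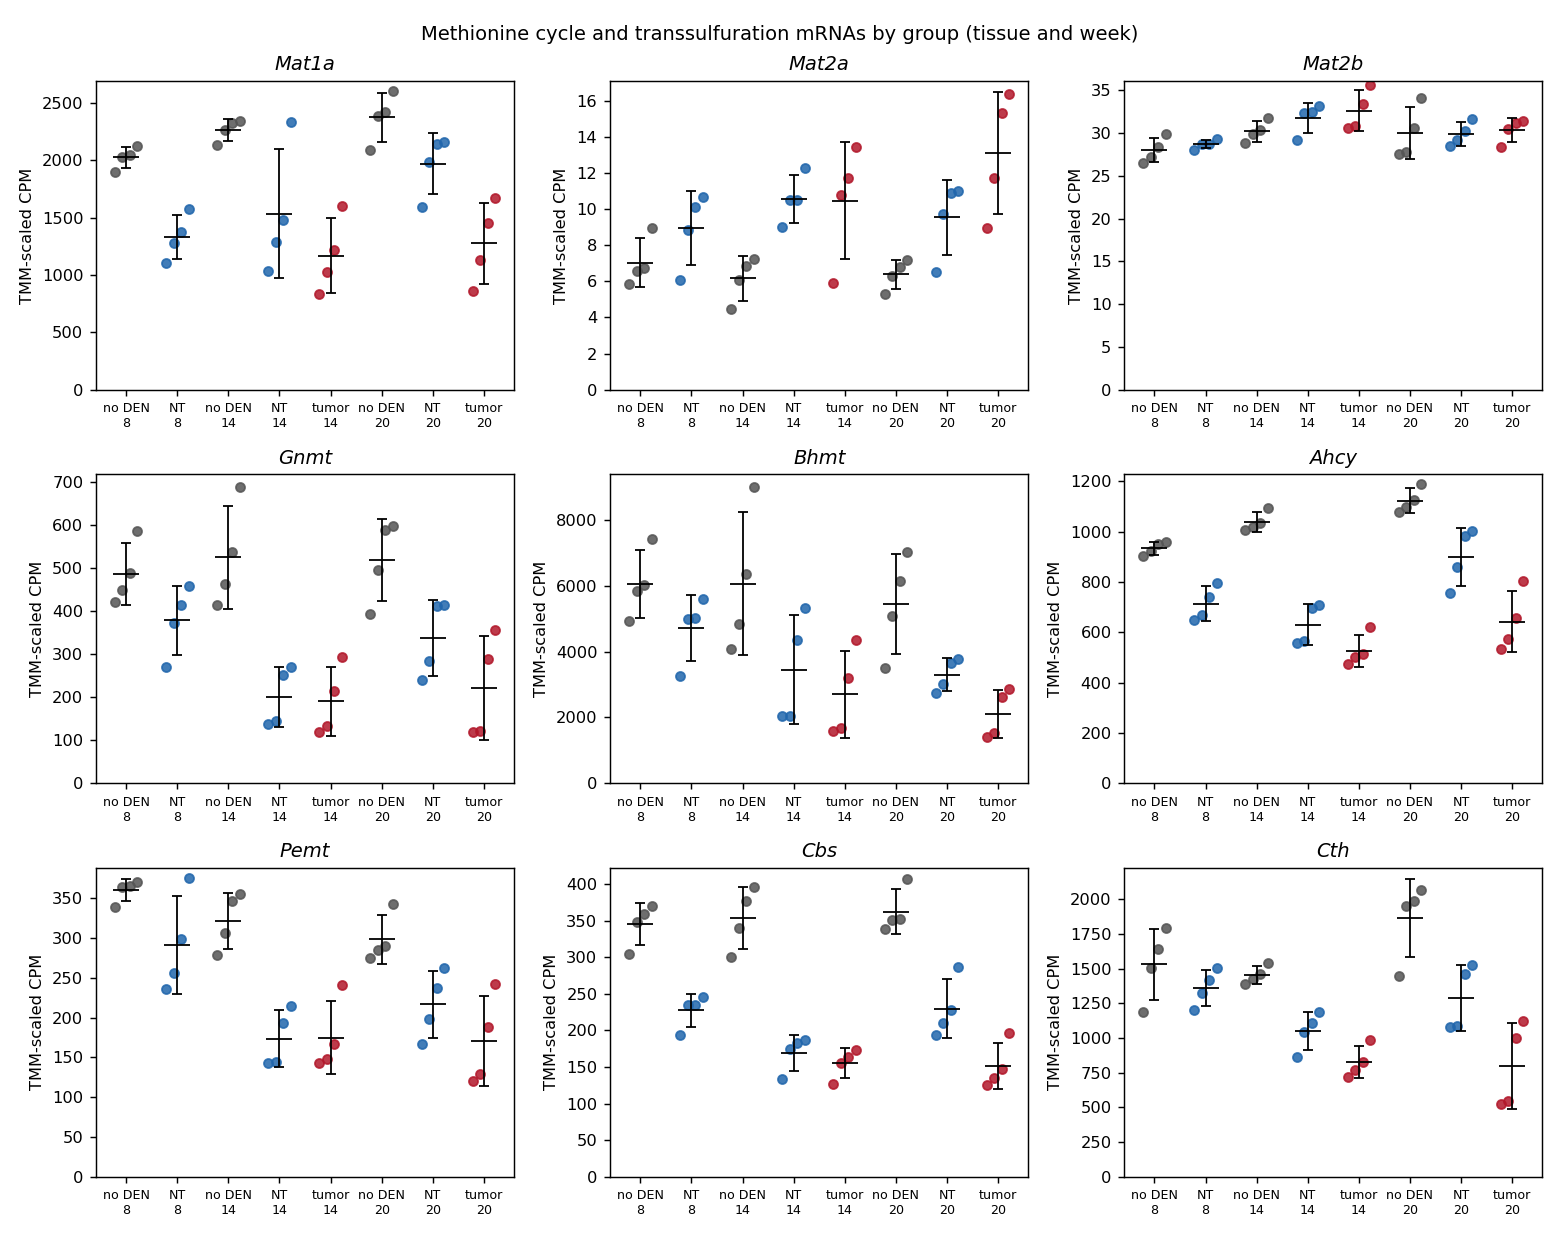
TMM-scaled CPM (linear axes from 0) of the 9 members in the 8 groups, with 1 point per rat (tumor points are means of 2 nodules), black dashes for group means and bars for SD (n = 4). In tumors Mat1a and the 6 enzymes downstream have lower means than in no DEN liver of the same week and Mat2a a higher one, the NT groups at 8 weeks overlap the controls for most members, and Mat2b lies between 26.5 and 35.6 CPM throughout.

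The start regions of the 2 catalytic subunit genes are shown because their mRNAs moved in opposite directions. They hold the 250 bases before the annotated transcription start (RefSeq, build GRCr8), 5′ to 3′ on the strand of the gene, at chr16:17016918-17017167 (plus strand) for Mat1a and chr4:106053613-106053862 (minus strand) for Mat2a. Capitals mark matches to any of 6 motifs searched on both strands.
Mat1a: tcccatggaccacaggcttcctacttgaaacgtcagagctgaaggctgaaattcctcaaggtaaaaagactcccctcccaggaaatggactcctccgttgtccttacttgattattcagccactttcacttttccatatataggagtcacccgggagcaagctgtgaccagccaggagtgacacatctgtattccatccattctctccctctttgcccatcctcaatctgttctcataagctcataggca
Mat2a: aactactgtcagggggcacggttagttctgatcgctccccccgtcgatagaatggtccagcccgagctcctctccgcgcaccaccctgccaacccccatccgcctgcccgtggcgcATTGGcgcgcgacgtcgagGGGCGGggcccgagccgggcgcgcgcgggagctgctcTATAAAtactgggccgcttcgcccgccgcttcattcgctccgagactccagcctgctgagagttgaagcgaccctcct
The motifs were the TATA box TATAAA (found in 12.9% of 33469 RefSeq start regions of this length), the CCAAT box CCAAT (34.0%), the GC box GGGCGG (30.5%), the E-box CACGTG (5.59%), TGATGNAA (3.40%) and TGACNNNGC (10.1%). Mat2a held 1 match each to the first 3, the CCAAT box on the opposite strand as ATTGG, and Mat1a held none of the 6. The Mat2a region had 29 CpG pairs and 67.6% G and C, against 3 CpG pairs and 48.0% for Mat1a and a median of 5 and 51.2% over all start regions. All 9 members matched an entry of this table, and CpG pairs of the other 7 ran from 4 (Pemt) to 17 (Cbs). Such matches are letters in a window and say nothing of binding in these livers.

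The number of Mat1a counts per Mat2a count in the same library does not depend on scaling to library size. Since the counts are not corrected for transcript length, only its change between libraries is read. No DEN liver had ratios of 363, 308, 302 and 212 at 8 weeks, 371, 524, 295 and 338 at 14 weeks, and 381, 356, 290 and 490 at 20 weeks. NT liver of DEN-treated rats had 136, 258, 144 and 103 at 8 weeks, where only rat F10 reached the control range. At 14 weeks its ratios were 223 (F06), 105, 114 and 141, all below the controls. At 20 weeks they were 329 (F03), 204, 198 and 144, with F03 inside the control range and the other 3 rats below it.

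On the log2 scale the mean ratio in NT liver was lower than without DEN by 0.95 at 8 weeks (7.24 ± 0.56 against 8.18 ± 0.33, SD, n = 4, exact 2-sided permutation p = 0.0571). At 14 weeks it was 2.68-fold lower (7.12 ± 0.48 against 8.54 ± 0.35, exact 2-sided permutation p = 0.0286, the smallest p that 4 against 4 rats allow). The difference at 20 weeks was 1.78-fold (7.71 ± 0.49 against 8.54 ± 0.31, exact 2-sided permutation p = 0.0571). Tumors, with the counts of both nodules of a rat added, had ratios of 265 (F06), 75.5, 72.5 and 111 at 14 weeks and 144 (F03), 150, 72.6 and 49.8 at 20 weeks. None of these 8 rats reached the controls of its week. The ratio in tumors was 3.31-fold lower than without DEN at 14 weeks and 3.97-fold lower at 20 weeks (exact 2-sided permutation p = 0.0286 each). Adjusted by Benjamini-Hochberg over 7 ratio tests, the permutation p values of these 5 comparisons were 0.0667 each, so none passed 0.05 after adjustment.

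Single nodules spanned a wider range than these sums. At 14 weeks the 8 nodules had ratios from 60.3 to 357 and at 20 weeks from 33.7 to 382. Nodule 1 of F06 (357) and nodule 1 of F03 (382) lay inside the range of the no DEN rats of the same week, while the other 14 nodules lay below it. Nodule 2 of F06, the highest of these 14 (225.4), was above the lowest no DEN library of all weeks (212.3 at 8 weeks). Nodule 1 of F06 and nodule 1 of F03 had few Mat2a transcripts, 4.01 and 4.16 CPM, lower than any no DEN library. Their Mat1a levels of 1432 and 1591 CPM were below those of all no DEN libraries. These libraries also stood apart in other measures: nodule 1 of F06 had the fewest counted pairs (20528500) and the highest share of pairs outside annotated exons (34.5%, the next being 28.2% in nodule 2 of F06), and nodule 1 of F03 had the highest share of pairs matching several places (16.3%, the next being 13.2%). The part of these measures in the ratios was not tested. Nodule 2 of F03 had 13.8 CPM of Mat2a and a ratio of 95.1, so 2 nodules of the same liver differed 3.31-fold in Mat2a. With nodule 1 of each rat alone the ratio in tumors still was lower on average, by 1.82 and 1.55 on the log2 scale, but the groups overlapped (exact 2-sided permutation p = 0.0857 and 0.114).

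**Figure D2:**
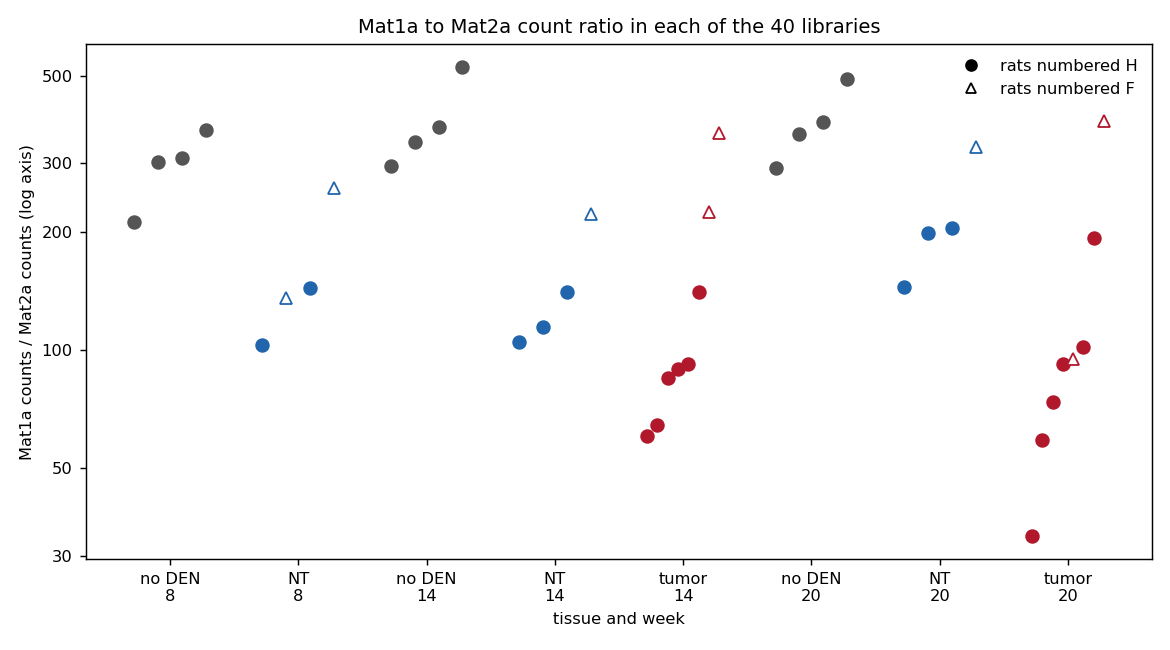
Ratio of Mat1a to Mat2a counts (log axis) in each of the 40 libraries by tissue and week, with open triangles for rats numbered F and filled circles for rats numbered H. No DEN libraries lie between 212 and 524, and 13 of the 16 nodules lie below them, the exceptions being both nodules of F06 (357 and 225) and nodule 1 of F03 (382).

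Gnmt and Pemt encode 2 large users of S-adenosylmethionine in hepatocytes. GNMT methylates glycine and disposes of excess methyl groups, and PEMT makes phosphatidylcholine from phosphatidylethanolamine. Gnmt had 422, 449, 489 and 588 CPM without DEN and 460, 415, 372 and 272 CPM in NT liver at 8 weeks, where ranges overlapped and no call was made (-0.35, SE 0.16, edgeR adjusted p = 0.105). At 14 weeks it was 689, 538, 463 and 414 CPM without DEN and 270, 138, 145 and 253 CPM in NT liver. The groups did not overlap, and Gnmt fell 2.58-fold (log2 fold change -1.36, SE 0.26, edgeR adjusted p = 0.00217).

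The difference in Gnmt was smaller at 20 weeks, when NT liver had 412, 415, 240 and 285 CPM against 589, 495, 394 and 598 CPM without DEN (-0.61, SE 0.19, edgeR adjusted p = 0.0387, ranges overlapping). The call was lost without H13, H14, H16, H26 or H28 (adjusted p up to 0.0943), in a fit of all 8 groups and with library totals. Tumors had 294, 134, 120 and 214 CPM at 14 weeks and 357, 289, 119 and 121 CPM at 20 weeks, all below the controls. The falls were 2.82-fold (log2 -1.49, SE 0.30, edgeR adjusted p = 0.00289) and 2.48-fold (-1.31, SE 0.35, edgeR adjusted p = 0.00981), the second not called with nodule 1 alone (-0.96, edgeR adjusted p = 0.0511).

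Pemt fell in NT liver at 14 weeks from a mean of 321 ± 35.7 to 174 ± 35.7 CPM (SD, n = 4), without overlap, by a log2 fold change of -0.87 (SE 0.14, edgeR adjusted p = 0.000493). Its differences at 8 weeks (-0.30) and 20 weeks (-0.45) were smaller than the fold threshold, the second with an edgeR adjusted p of 0.0274. In tumors Pemt averaged 175 ± 45.4 CPM at 14 weeks and 170 ± 56.9 CPM at 20 weeks (log2 fold changes -0.90 and -0.86, edgeR adjusted p = 0.00267 and 0.00633). Its tumor values did not overlap those of the controls at either week. With library totals the 3 calls were lost (-0.46 in NT liver at 14 weeks, -0.34 and -0.39 in tumors), while NT liver at 20 weeks was called without F03 (-0.56, edgeR adjusted p = 0.0118), H13 or H15.

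Ahcy encodes the hydrolase that splits S-adenosylhomocysteine, the product and inhibitor of methyl transfer. Relative to the mean, its control levels varied less than those of the other members, at 933 ± 24.9, 1037 ± 39.0 and 1122 ± 49.4 CPM at 8, 14 and 20 weeks (SD, n = 4). NT liver had 714 ± 68.1, 631 ± 82.1 and 900 ± 115 CPM. At each week every NT value was below every control value, with log2 fold changes of -0.38, -0.70 and -0.31 (edgeR adjusted p = 0.00528, 0.0002 and 0.0399). The fold threshold was reached at 14 weeks alone. Tumors had 527 ± 63.6 and 643 ± 120 CPM at 14 and 20 weeks. On the log2 scale Ahcy fell by 1.00 (SE 0.10) at 14 weeks and changed by -0.83 (SE 0.16) at 20 weeks, without overlap with the controls. With library totals the calls of Ahcy were lost in NT liver at 14 weeks (-0.28) and in tumors (-0.44 and -0.35).

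Bhmt encodes the liver enzyme that remethylates homocysteine with betaine, and at 14 and 20 weeks it varied more among no DEN rats, relative to its mean, than the other members. At 14 weeks its controls ran from 4072 to 9006 CPM and NT liver from 2045 to 5316 CPM, with the difference of -0.80 not called (SE 0.37, edgeR adjusted p = 0.102). It was called without H23 (-1.08, edgeR adjusted p = 0.0386) and in a fit of all 8 groups (-0.83, edgeR adjusted p = 0.0388). At 20 weeks NT liver averaged 3301 ± 504 CPM against 5442 ± 1517 CPM (SD, n = 4, log2 fold change -0.71, SE 0.19, edgeR adjusted p = 0.0203, ranges overlapping). Tumors fell by 1.19 at 14 weeks (SE 0.37, edgeR adjusted p = 0.0237, ranges overlapping) and by 1.42 at 20 weeks, from 5442 to 2101 ± 738 CPM (SE 0.30, edgeR adjusted p = 0.00306, without overlap). Leaving out F06, H09, H10, H21 or H22 ended the call in tumors at 14 weeks (adjusted p up to 0.0686), and leaving out H16, H26 or H28 ended that in NT liver at 20 weeks (up to 0.0526). Both calls were also lost with library totals, and the second in a fit of all 8 groups.

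Cbs and Cth encode the 2 steps of transsulfuration, cystathionine synthesis and its cleavage to cysteine. Cbs was the one member called lower in all 5 comparisons with no DEN liver, each time without overlap of the groups. Its call in NT liver at 8 weeks was lost without rats numbered F (-0.49) and with library totals in place of TMM (-0.39), and that at 20 weeks with library totals (-0.42). In no DEN liver it had 345 ± 28.8, 354 ± 42.3 and 362 ± 30.7 CPM at 8, 14 and 20 weeks, and in NT liver 227 ± 22.9, 169 ± 24.4 and 230 ± 40.6 CPM (SD, n = 4). The log2 fold changes were -0.59 (SE 0.10, edgeR adjusted p = 0.00115), -1.04 (SE 0.12, edgeR adjusted p = 6.62e-05) and -0.65 (SE 0.13, edgeR adjusted p = 0.00465). Tumors had 155 ± 20.1 CPM at 14 weeks (-1.22, SE 0.13) and 151 ± 31.7 CPM at 20 weeks (-1.29, SE 0.16).

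Cth had 1464, 1424, 1543 and 1391 CPM without DEN at 14 weeks and 1110, 862, 1041 and 1188 CPM in NT liver. These ranges did not overlap, but the log2 difference of -0.45 (SE 0.10, edgeR adjusted p = 0.00373) was below the fold threshold (called without H23, -0.51). At 20 weeks it fell by 0.52 in NT liver (SE 0.15, edgeR adjusted p = 0.0227), a call lost without H14, H16, H26 or H28 (adjusted p up to 0.0600). Tumors had 771, 719, 828 and 984 CPM at 14 weeks and 1001, 1125, 547 and 525 CPM at 20 weeks, below all controls. The log2 fold changes in tumors were -0.85 (SE 0.11, edgeR adjusted p = 0.000262) and -1.26 (SE 0.28, edgeR adjusted p = 0.00395). With library totals the calls in NT liver at 20 weeks (-0.31) and in tumors at 14 weeks (-0.28) were lost.

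Counted over the members, 0 rose and 2 fell (Mat1a and Cbs) in NT liver at 8 weeks, when 16.5% of all genes tested rose and 5.21% fell. At 14 weeks 1 rose (Mat2a) and 4 fell (Gnmt, Ahcy, Pemt and Cbs), against 22.8% and 9.85% of all genes. At 20 weeks 1 rose (Mat2a) and 4 fell (Gnmt, Bhmt, Cbs and Cth), against 14.3% and 3.82% of all genes. In tumors 1 rose (Mat2a) and 7 fell, all but Mat2b, at both times. With library totals in place of TMM, 0, 2 and 1 members rose and 0, 2 and 0 fell in NT liver at 8, 14 and 20 weeks, and 2 and 2 rose and 2 and 4 fell in tumors at 14 and 20 weeks. Under that scaling 24.7%, 46.6%, 24.8%, 56.1% and 52.7% of all genes were called in these 5 comparisons, both directions together. Of all genes 23.9% rose and 15.2% fell in tumors at 14 weeks, and 23.6% and 15.2% at 20 weeks. The median log2 difference of the 9 members was -0.35, -0.70 and -0.45 in NT liver at 8, 14 and 20 weeks and -0.98 and -0.93 in tumors at 14 and 20 weeks, where that of all genes tested was between -0.01 and 0.02. Comparisons of NT liver and tumors of the same week share the same 4 no DEN rats and are not independent of each other.

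**Figure D3:**
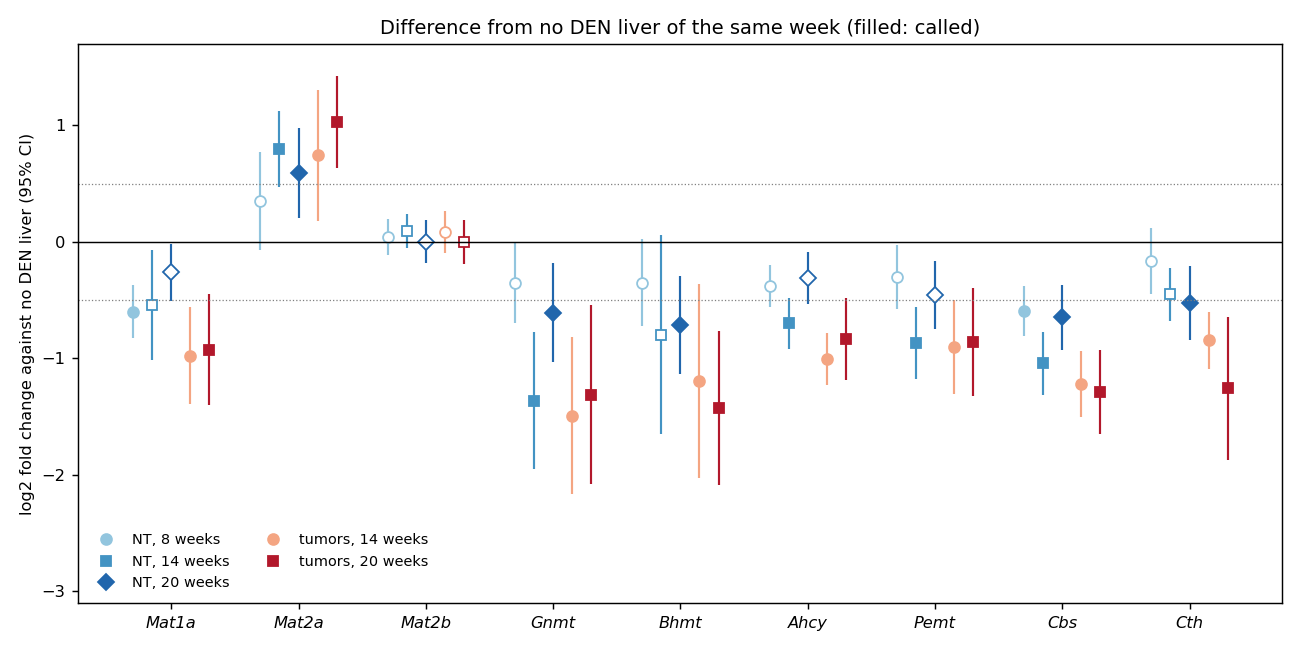
Log2 fold change of each member against no DEN liver of the same week in NT liver (8, 14 and 20 weeks) and tumors (14 and 20 weeks), with 95% confidence intervals (n = 4 per group), filled symbols for called differences and dotted lines at the fold threshold of 0.5. Tumors show 7 called falls and 1 called rise at both times, and the 5 intervals of Mat2b all include 0.

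Whether the effect of DEN differed between weeks was tested by the interaction of treatment and week, at an adjusted p of at most 0.05. By edgeR 0 of 9 members passed between 8 and 14 weeks in NT liver, where 8.96% of all genes did. An unadjusted p under 0.05 was found for 4 members (Gnmt, Ahcy, Pemt and Cbs), beside 2980 of 11219 genes tested. Gnmt came closest, with an effect that was lower by 1.01 at 14 weeks than at 8 weeks (SE 0.32, edgeR adjusted p = 0.0585), and DESeq2 called 2 members (10.9% of all genes). Leaving out NT rat F06 or H23 also gave 2 (15.6% and 9.14% of all genes), and leaving out H17 or H18 gave 1 (16.5% and 8.38%). Between 14 and 20 weeks 0 members passed in NT liver (0.738% of all genes) and 0 in tumors (0.0862% of all genes), and DESeq2 gave 0 for both. At an unadjusted p under 0.05 there were 3 members in NT liver, beside 1912 of 11245 genes tested. In tumors there were 0 members, beside 378 of 11607 genes. A change of the effect of DEN on single members after the injections ended was therefore not shown by the test of the difference.

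Ordered by mean level over the 8 groups, Mat1a ran from 2373 CPM in no DEN liver at 20 weeks to 1169 CPM in tumors at 14 weeks, with the 3 no DEN groups on top. Among neighbours in this order, no DEN liver at 14 and at 8 weeks did not overlap, while the other 6 neighbouring pairs did. For Mat2a the 3 no DEN groups stood at the bottom (6.16 to 7.04 CPM) and tumors at 20 weeks on top (13.1 ± 3.39 CPM). Among the DEN groups the order of Mat1a was not reversed. NT liver at 8 weeks had the lowest mean of Mat1a among NT groups (1330 CPM) and the lowest of Mat2a among DEN groups (8.94 CPM). No neighbouring pair of groups in the Mat2a order differed by more than the larger of their SD values.

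Tumors and NT liver of the same rats were compared next, to see which members differed in the nodules themselves. Deviations from the group means were correlated between the NT liver and the tumors of each rat (r from 0.367 to 0.538 over the 8 rats). By edgeR without regard to the rat, 0 members were called at either week, as were 0% of all genes up or down. At an unadjusted p under 0.05, 1 member (Cth) passed at 14 weeks and 5 at 20 weeks, among 1348 and 2767 of all genes tested. DESeq2 called 0 members at 14 weeks (35 genes in all) and 3 at 20 weeks (902 genes).

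With the rat as a replicate block, 0 members and 0% of all genes were called at 14 weeks, with 4 members (Mat1a, Bhmt, Ahcy and Cth) and 2518 genes at an unadjusted p under 0.05. At 20 weeks the block gave 6 members that were lower in tumors (5.46% of all genes fell and 9.21% rose). These were Mat1a (-0.70, SE 0.14, edgeR adjusted p = 0.00296), Gnmt (-0.83, SE 0.16, edgeR adjusted p = 0.00478), Bhmt (-0.77, SE 0.15, edgeR adjusted p = 0.0021), Ahcy (-0.53, SE 0.11, edgeR adjusted p = 0.00335), Cbs (-0.64, SE 0.15, edgeR adjusted p = 0.0151) and Cth (-0.80, SE 0.14, edgeR adjusted p = 0.00118). Mat2a was 0.46 higher (edgeR adjusted p = 0.00326) and Pemt 0.44 lower (edgeR adjusted p = 0.00693), both within the fold threshold.

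At 20 weeks all 4 rats had less Mat1a in their nodules than in NT liver, with log2 ratios from -0.94 to -0.25, and all 4 had more Mat2a, by 0.27 to 0.57. Gnmt, Bhmt, Ahcy, Pemt, Cbs and Cth were lower in the nodules of all 4 rats too. At 14 weeks Mat1a, Bhmt, Ahcy, Cbs and Cth were lower in the nodules of all 4 rats, Gnmt in 3 and Pemt in 2. Mat2a was higher in 3 rats at that time and 0.83 lower in F06. The ratio of Mat1a to Mat2a was 2.23-fold lower in tumors than in NT liver at 20 weeks (exact 2-sided permutation p = 0.0571, adjusted over 7 tests 0.0667; with signs flipped within rats the exact p was 0.125, the smallest that 4 rats allow). At 14 weeks it was 1.24-fold lower (exact 2-sided permutation p = 0.543, and 0.25 with signs flipped within rats), and the log2 difference of -0.31 became -0.49 without F06 and -0.19 without H22.

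**Figure D4:**
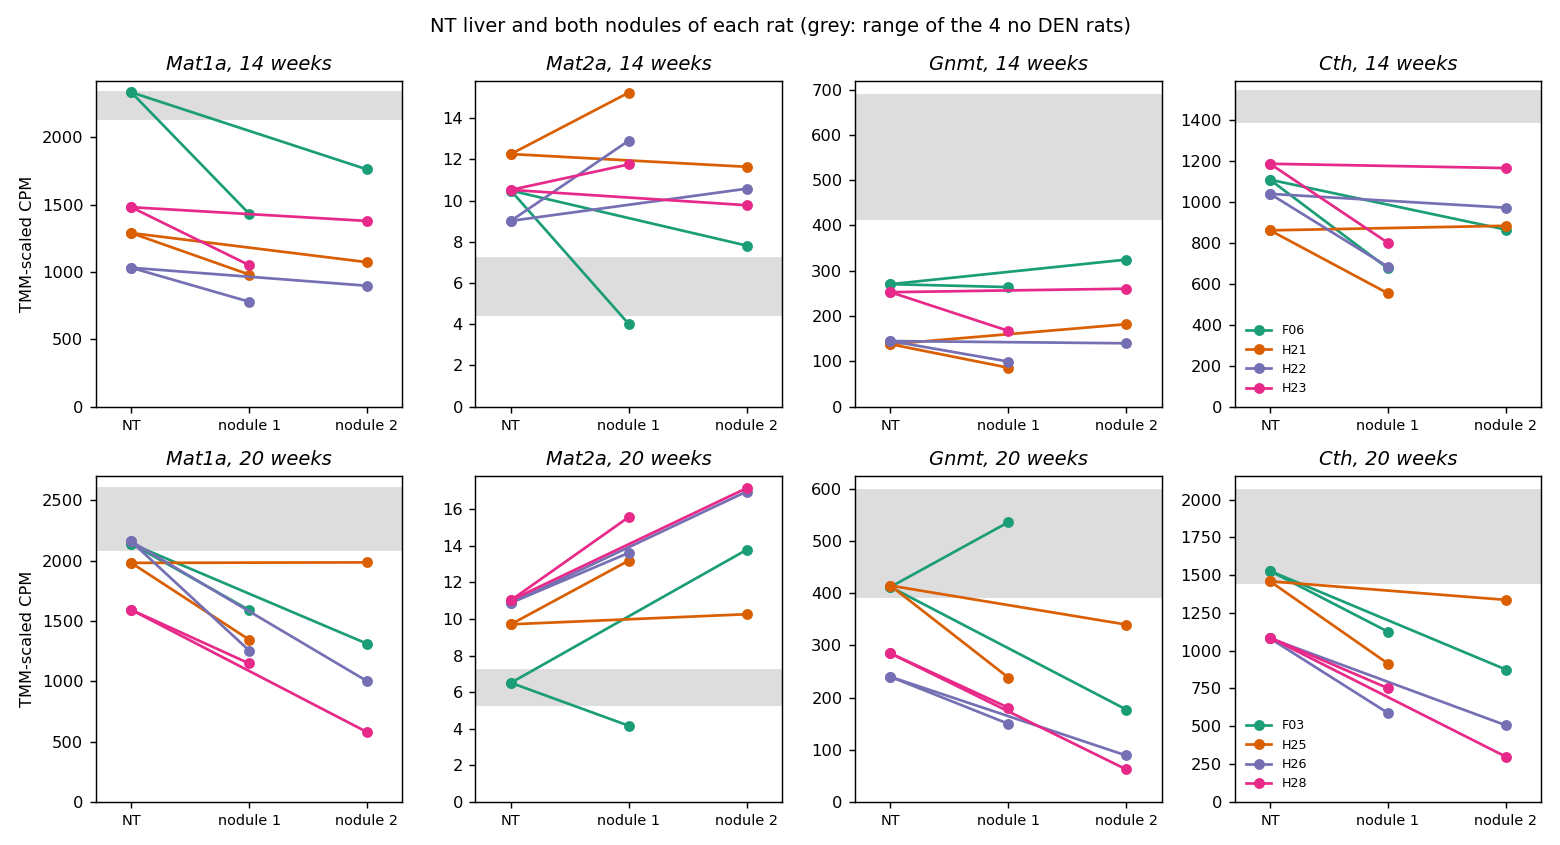
TMM-scaled CPM (linear axes from 0) of Mat1a, Mat2a, Gnmt and Cth in NT liver and in nodules 1 and 2 of each rat at 14 and 20 weeks, lines joining NT liver to each nodule of the same rat and grey bands showing the range of the 4 no DEN rats. At 20 weeks Cth is lower in all 8 nodules than in NT liver of the same rat, and Mat2a is higher in 7 of them, nodule 1 of F03 being the exception.

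Nodules of the same liver were not alike. At 20 weeks the higher of the 2 nodules exceeded the lower by a median of 1.36-fold for Mat1a (largest 1.99-fold), 2.29-fold for Gnmt (largest 3.03-fold) and 1.78-fold for Bhmt (largest 3.06-fold), but by 1.04-fold for Mat2b. In rat H28, nodule 2 had 578 CPM of Mat1a, 62.2 of Gnmt and 299 of Cth, the lowest of all 40 libraries for each, and nodule 1 had 1148, 181 and 752 CPM. The members moved together within a liver: in all 8 rats the nodule with less Mat1a also had less Gnmt, Bhmt, Ahcy, Pemt and Cth, and in 6 of 8 less Cbs. It had more Mat2a in 7 of 8 rats, the exception being F06, and less Mat2b in 4 of 8. The summed level of 8 hepatocyte marker genes was also lower in the nodule with less Mat1a in each of these rats. It was 134392 CPM in nodule 2 of H28 against 205684 CPM in nodule 1, and 157812 against 180859 CPM in H26. The shared direction was thus not particular to the members, and the share of all genes that followed it was not counted. These counts are descriptions of 2 nodules per rat and were not tested.

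Over the 32 values (1 per rat and tissue), Mat1a and Mat2a correlated negatively (Pearson r = -0.74 on log2 CPM), and Mat1a correlated positively with the 6 enzymes downstream, from 0.68 (Cbs) to 0.88 (Ahcy). These points share livers at 14 and 20 weeks and fall into groups with and without DEN, so the values are descriptions with no test. Among 10066 genes with a mean of at least 1 CPM, those most like Mat1a were Stard13, Masp1, Fam55b and Cept1 (r = 0.93 each) and Lrtm2 (0.92). Those most like Mat2a were Nop56 (r = 0.89), Ajuba (0.87), Ipo4, Tpm4 and Nek6 (0.86 each).

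Genes around the cycle were read from 4 lists. Counts called in these lists and in the marker lists below are to be read beside the shares of all genes tested. In NT liver at 8, 14 and 20 weeks 16.5%, 22.8% and 14.3% of all genes rose and 5.21%, 9.85% and 3.82% fell. In tumors at 14 and 20 weeks 23.9% and 23.6% rose, and 15.2% fell at each time. In the folate and remethylation list 20 genes were analysed. In NT liver 2, 3 and 2 genes rose and 3, 6 and 1 fell at 8, 14 and 20 weeks, of 19, 19 and 20 tested, and in tumors 4 and 2 rose and 9 and 9 fell, of 20. The largest rises were those of 2 mitochondrial folate enzymes, Mthfd1l (log2 fold change 2.81, SE 0.49, in NT liver at 14 weeks and 3.20, SE 0.47, in tumors at 20 weeks) and Mthfd2 (1.94, SE 0.18, and 2.98, SE 0.30). Among the falls, Aldh1l2, a mitochondrial formyltetrahydrofolate dehydrogenase, changed by -0.84 in NT liver at 14 weeks, and Dmgdh, which oxidises the dimethylglycine left by betaine remethylation, by -1.22 in tumors at 20 weeks. The median of the tested genes of the list was -0.26, -0.25 and -0.23 in NT liver and -0.46 and -0.47 in tumors.

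Of 10 small-molecule methyltransferases, which use S-adenosylmethionine like GNMT and PEMT, 9 were tested and 0 rose in these 5 comparisons. In NT liver 1, 4 and 2 fell at 8, 14 and 20 weeks, and 5 fell in tumors at each time. Inmt, an indolethylamine methyltransferase, fell in NT liver at 14 weeks (log2 fold change -4.27, SE 0.37) and in tumors at 20 weeks (-2.43, SE 0.51). Nnmt, which methylates nicotinamide, fell in the same comparisons (-0.92 and -1.13). The median of the list was -0.50 in NT liver at 14 weeks and -0.55 in tumors at 20 weeks.

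Polyamine synthesis draws on decarboxylated S-adenosylmethionine, and its by-product is salvaged back to methionine. Of 13 tested genes of this list, 0, 2 and 1 rose and 1, 1 and 1 fell in NT liver at 8, 14 and 20 weeks, and 1 and 2 rose and 2 and 1 fell in tumors. Odc1, which makes putrescine, rose by 0.57 in NT liver at 14 weeks and 0.67 in tumors at 20 weeks, and Sms, spermine synthase, by 0.99 in the latter. Mtap, the first salvage enzyme, rose by 0.57 in NT liver at 14 weeks, and Oaz1, an inhibitor of ODC1, fell by 0.62. Amd1, which decarboxylates S-adenosylmethionine, fell by 0.62 in tumors at 20 weeks.

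Cysteine made by transsulfuration feeds glutathione, taurine and sulfide metabolism, and 12 genes of this list were tested (Sqor, the remaining one, was not matched by symbol). In NT liver 0, 3 and 2 rose and 1, 3 and 2 fell at 8, 14 and 20 weeks, and in tumors 3 and 4 rose and 4 and 4 fell. Both subunits of glutamate-cysteine ligase, the entry to glutathione synthesis, rose: Gclc by 2.38 (SE 0.43) and Gclm by 2.35 (SE 0.37) in NT liver at 14 weeks, and by 2.51 (SE 0.27) and 2.62 (SE 0.23) in tumors at 20 weeks. Cdo1, which oxidises cysteine on the way to taurine, fell by 1.24 (SE 0.19) in NT liver at 14 weeks. Ethe1, a mitochondrial sulfur dioxygenase, fell by 1.42 (SE 0.16) in tumors at 20 weeks. The list thus held called genes in both directions, and its median was -0.23 and -0.28 in these 2 comparisons.

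**Figure D5:**
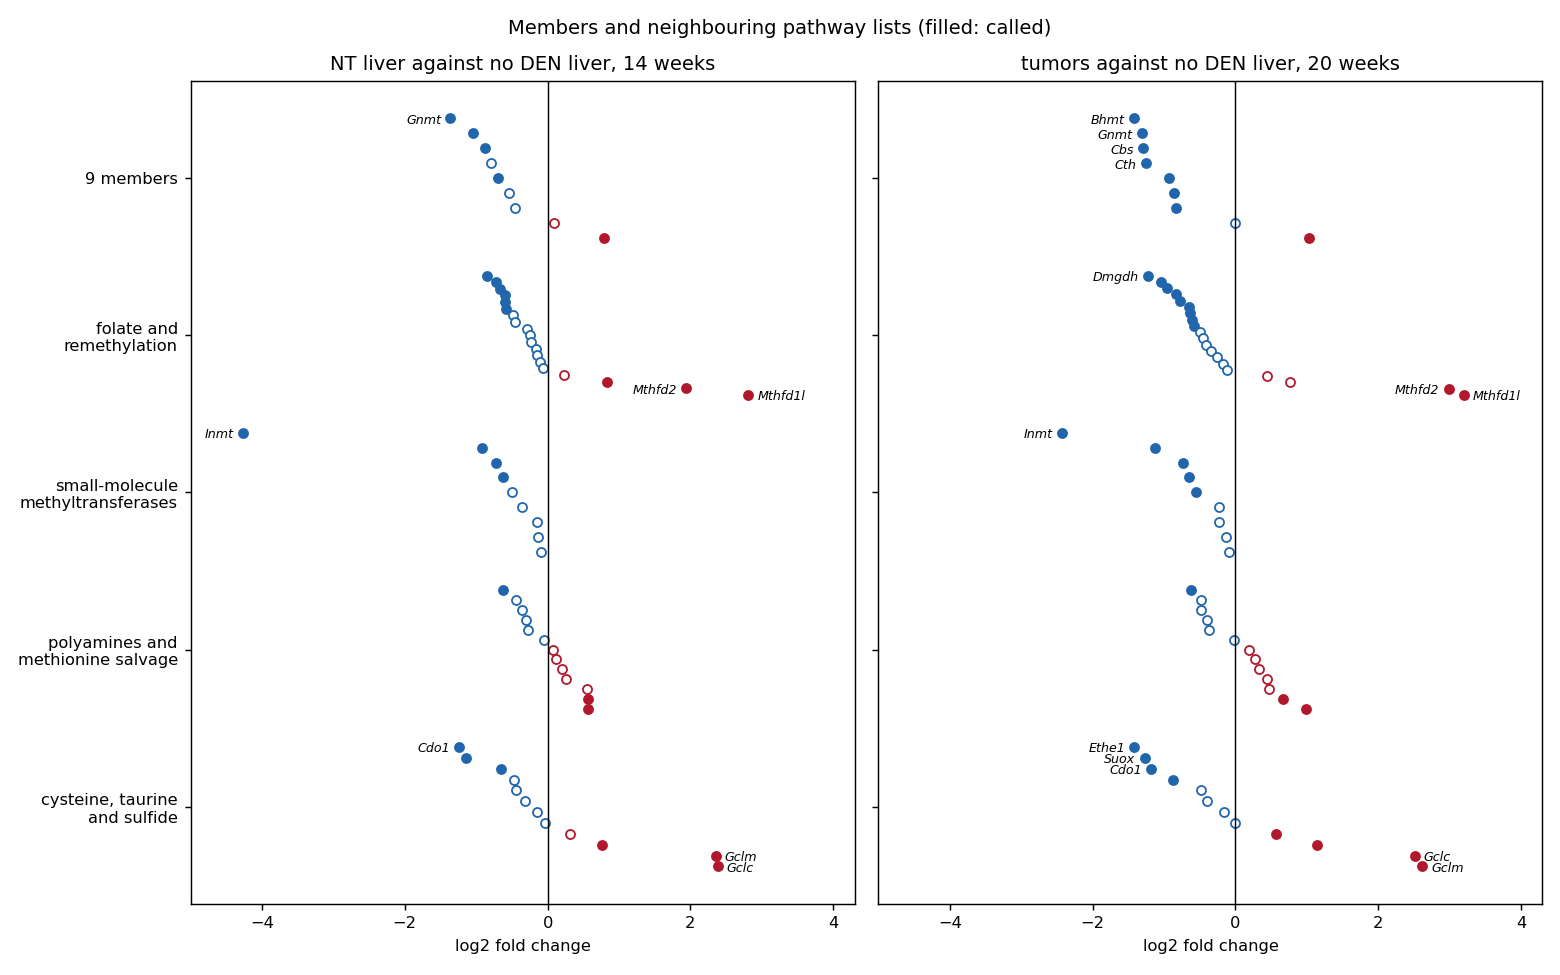
Log2 fold change against no DEN liver (horizontal axis) of the 9 members and of the tested genes of 4 neighbouring lists, in NT liver at 14 weeks and in tumors at 20 weeks, 1 point per gene, filled where called, red above and blue below 0. Mthfd1l, Mthfd2, Gclc and Gclm stand apart on the right at 1.94 to 3.20 and Inmt on the left.

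In bulk tissue, fewer cells of a type and less RNA per cell cannot be told apart, and cell type markers differed between the same groups. The summed level of 8 hepatocyte markers ran from 288952 to 325698 CPM without DEN at 14 weeks, from 191285 to 240334 CPM in NT liver and from 143393 to 231192 CPM in nodules. Of these 8 markers, 6 fell and 1 rose in NT liver at 14 weeks, with a median of -0.60 beside -0.70 for the members, and in tumors at 20 weeks 5 fell and 1 rose, with a median of -0.69 beside -0.93. In NT liver at 8 weeks 1 fell (median -0.14 beside -0.35), at 20 weeks 1 fell and 1 rose (-0.24 beside -0.45), and in tumors at 14 weeks 6 fell and 1 rose (-0.88 beside -0.98). Periportal hepatocyte markers (8 genes) had medians of -0.43, -0.82 and -0.55 in NT liver at 8, 14 and 20 weeks and -1.20 and -1.30 in tumors, and pericentral ones 0.34, -0.35, -0.42, -0.60 and -1.12. In tumors against NT liver at 20 weeks, with the rat as block, the members had a median of -0.64. Hepatocyte markers then had -0.39 (2 of 8 fell), periportal ones -0.77 (5 fell) and pericentral ones -0.63 (4 fell, 1 rose). Dividing-cell markers had 1.07, with 8 of 8 called up. Of all genes 5.46% fell and 9.21% rose in that fit, and without the block 0 of these markers were called.

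Dividing-cell markers (8 genes) summed to 18.9 to 25.7 CPM without DEN and 82.6 to 201 CPM in NT liver at 14 weeks. At 8 weeks they summed to 16.3 to 29.2 CPM without DEN and 101 to 125 CPM in NT liver. In tumors at 20 weeks they summed to 36.5 to 184 CPM. They were called up in 8, 8 and 5 of 8 genes in NT liver at 8, 14 and 20 weeks. In tumors 8 of 8 were called up at each time. Cholangiocyte and progenitor markers rose in 3, 5 and 5 of 7 genes in NT liver and in 5 of 7 in tumors at each time (1 fell in tumors at 20 weeks), and endothelial markers in 6 of 8 in each of the 5 comparisons. Stellate cell and fibroblast markers rose in 6, 5 and 4 of 7 tested genes in NT liver and 5 in tumors at each time (1 fell in NT liver at 14 weeks), with Col1a2 at 0 in all groups. Leukocyte markers rose in 6 of 8, 4 of 7 and 2 of 7 genes in NT liver and in 5 and 3 of 8 in tumors. The part of these cell types in the changes of the members was not tested. Hepatocyte genes were abundant in all libraries, the lowest sum being 134392 CPM in nodule 2 of H28. Nodule 1 of F06, low in Mat2a, had the lowest hepatocyte sum at 14 weeks and 84.3 CPM of dividing-cell markers. Nodule 1 of F03, likewise low in Mat2a, had 254439 and 77.7 CPM.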

How the data were processed

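Polyadenylated RNA of 40 rat liver libraries was sequenced as strand-specific read pairs. The authors aligned the pairs to rn6 (STAR 2.7.1a per the labels) and counted those lying within the exons of a single gene with HTSeq, dropping pairs that matched several places, so that any reads a member shares with a near-identical copy are missing. The deposited values are raw counts per gene, with no normalization. HTSeq's summary lines were left out of library sizes and tests (21.5% to 34.5% of pairs lay outside annotated exons, 0.816% to 1.56% were ambiguous). Libraries were grouped by their labels, which also give the rat shared by NT liver and nodules. The test used 1 tumor value per rat, the sum of the counts of its 2 nodules.

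For each comparison the 2 groups were fitted with edgeR 4.0.16 in R 4.3.3 (filterByExpr, TMM, robust quasi-likelihood F test, 2-sided, Benjamini-Hochberg over all genes tested), after the code was tested on simulated data. The methods name DESeq2 with a stricter rule for NT liver, which were used as alternatives (DESeq2 1.42.0), beside other scalings, filters, fits, single nodules, rats left out and the rat as block. SE was derived from the log2 fold change and F. No library pair of a group agreed within sampling noise (the smallest chi-square was 12.9 times its degrees of freedom), and intervals cover the spread between rats.

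The members and gene lists were chosen with earlier results of these data known. All 9 members are named in every comparison; of each pathway list, the 3 called genes with the largest change in NT liver at 14 weeks and in tumors at 20 weeks are named, except 1 methyltransferase that is not reported here.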

Additional observations from a re-analysis of the deposited data

How the results depend on the processing

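All values here are log2 differences unless they are counts of members called. Mat2a has few counts, and 4 rats per group limit what can be called. Over counts of members and ratios, 216 alternative values kept their direction and call or a similar count, 15 were weaker or lower and 9 stronger or higher. Over single members, 1396 kept direction and call, 70 lost a call, 38 gained one and 71 changed sign. The cause of these changes was not tested. With library totals in place of TMM the median of all genes lay at 0.19, 0.44, 0.24, 0.57 and 0.51 (NT liver at 8, 14 and 20 weeks, tumors at 14 and 20 weeks), and 0 members were called in NT liver at 8 weeks, 1 at 20 weeks and 4 in tumors at 14 weeks (Mat2a and Mat2b up, Gnmt and Cbs down). Library totals also ended the calls of Ahcy and Pemt in NT liver at 14 weeks and of Mat1a, Ahcy and Pemt in tumors at 20 weeks. A fold of 2 with an adjusted p of 0.01 left 0, 2 and 0 members in NT liver at 8, 14 and 20 weeks and 3 and 5 in tumors (7.91%, 15.2%, 5.22%, 18.7% and 17.4% of all genes). One fit of all 8 groups gave 2 in NT liver at 20 weeks (19.6% of all genes), and leaving out single rats gave 1 (without H16, H26 or H28, with 1403, 1726 and 1623 genes called in all) to 6 (without F03 or H15, with 1774 and 1649). For tumors against NT liver at 20 weeks, DESeq2 gave 3 (6.37% of all genes), the fit of all groups 3 (9.45%), the rat as replicate block 6 (14.7%), and leaving out single rats 0 to 1 (without H25, 3.84%). For the effect in NT liver at 14 against 8 weeks DESeq2 gave 2 and leaving out single rats 0 to 2. With nodule 1 alone the ratio of Mat1a to Mat2a in tumors differed from no DEN liver by -1.82 at 14 weeks and -1.55 at 20 weeks, overlapping the controls (exact permutation p = 0.0857 and 0.114), and Mat2a (0.80, edgeR adjusted p = 0.0720) and Gnmt (-0.96, edgeR adjusted p = 0.0511) lost their calls in tumors at 20 weeks, as did Mat2a at 14 weeks (0.84, edgeR adjusted p = 0.0947). Mat1a in NT liver at 14 weeks was called by DESeq2 (-0.57, adjusted p = 0.0123), by edgeR with RLE scaling (-0.56, adjusted p = 0.0467) and by edgeR with all 8 groups in one fit (-0.57, adjusted p = 0.0206).

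The values that changed sign were all uncalled to begin with. Against no DEN liver, Cth in NT liver at 8 weeks was 0.036 with library totals. Mat2b in NT liver at 20 weeks was -0.03 with DESeq2, -0.022 with RLE scaling, -0.0051 without the filter, -0.017 with all groups, -0.025 with rats numbered H and -0.050 to 0.037 with single rats left out. Mat2b in tumors at 20 weeks was 0.50 with library totals, 0.00016 without the filter, 0.016 with all groups, 0.0070 with rats numbered H, 0.083 with nodule 2 and -0.046 to 0.053 with single rats left out. In tumors against NT liver at 14 weeks, Pemt was 0.0017 with RLE, 0.11 with totals, 0.0038 without the filter, 0.017 with all groups, 0.21 with nodule 2 and -0.081 to 0.075 with single rats left out. Mat2a there was 0.099 with totals, 0.00055 with all groups, 0.17 with rats numbered H, 0.062 with nodule 1 and -0.14 to 0.17 with single rats left out, Gnmt was 0.023 with totals and 0.16 with nodule 2, and Mat2b was -0.016 to 0.069 with single rats left out. At 20 weeks Mat2b was -0.063 with nodule 1 and -0.0088 to 0.027 with single rats left out. For the effect in NT liver at 14 against 8 weeks, Mat1a was -0.064 with rats numbered H and -0.22 to 0.17 with single rats left out, and Mat2b -0.0063 to 0.073. At 20 against 14 weeks Bhmt was -0.099 with totals and -0.16 to 0.38 with single rats left out, and Cth -0.17 to 0.014. For the effect in tumors at 20 against 14 weeks, totals gave -0.043 for Mat1a and -0.053 for Pemt, nodule 1 gave 0.26 for Bhmt and 0.058 for Cbs, and nodule 2 gave -0.13 for Mat1a, -0.42 for Gnmt, -0.00064 for Ahcy and -0.33 for Pemt. Leaving out single rats there gave -0.15 to 0.25 for Mat1a, -0.16 to 0.25 for Pemt, -0.50 to 0.063 for Bhmt, -0.25 to 0.018 for Cbs and -0.094 to 0.49 for Gnmt.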

Other observations

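At 14 weeks nodule 1 had less Mat1a, Gnmt, Bhmt, Ahcy, Pemt and Cth than nodule 2 in all 4 rats, and at 20 weeks in 1 of 4. The summed hepatocyte markers were lower in nodule 1 in the same rats. What the nodule numbers stand for (size, position or order of sampling) was not given in the sources used here, and the difference was not tested.

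None of the 80 sets of 4 rats (9 members and the ratio of Mat1a to Mat2a in 8 groups) held a value beyond Dixon's 95% limit for 4 values, a limit that chance passes in about 5% of sets. Nodule 1 of F06 and nodule 1 of F03, whose ratios lay in the control range of their week, enter these sets only together with the other nodule of their rat.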
